A study of Mus musculus with 9 samples.

Results

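Eph receptors and ephrins were followed in RNA-Seq of whole osteosarcoma (OS) tumors from genetically engineered mouse models (GEMMs), of which 4 were p53 driven and 5 carried the Myc knockin. The 10 genes described are 8 receptors (Epha2, Epha3, Epha4, Epha7, Epha8, Ephb2, Ephb3 and Ephb4) and 2 ligands (Efnb1 and Efnb2), found by gene symbol among the 55367 genes of the deposited count table. They were chosen with their Myc-knockin against p53-driven values in these same tumors already known. Their fold changes are therefore given as a description with a standard error and no p-value. Where a member is said to be called, this describes the fit and is not evidence for the member. The p53-driven tumors came from Col2.3-Cre Trp53 fl/+ mice, in which an osteoblast promoter drives Cre and 1 Trp53 allele is floxed. The Myc-knockin tumors carried in addition Lox-Stop-Lox-MycT58A, so Cre and the floxed Trp53 allele are common to both groups. Ages, strains and the number of mice behind the tumors are not given in the labels. Tumors are named here by the column heads of the count table, F187, F325, F331 and F368 for p53-driven and M351, M408, M9, M624 and M664 for Myc-knockin.

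Eph receptors are the largest family of receptor tyrosine kinases, and their ephrin ligands are tied to the membrane of the neighboring cell. EphA receptors mostly bind the ephrin-A ligands, which are held by a lipid anchor, and EphB receptors mostly bind the transmembrane ephrin-B ligands. Contact sends a signal into both cells, usually ending in repulsion, boundary formation or changed adhesion. In bone, ephrin-B2 on osteoclasts and EphB4 on osteoblasts form such a pair, and EphB4 with ephrin-B2 also separates veins from arteries.

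The members that differed most between the groups were Ephb2 and Epha8, which were higher in the Myc-knockin tumors, and Epha3, which was lower. Ephb2 and Epha8 are neighbors in the genome. Both lie on the minus strand of chromosome 4 of mm10, Ephb2 at chr4:136647539-136835988 and Epha8 at chr4:136929419-136956816, with 93430 bases between them. Since these were the members that were higher, the 250 bases before their annotated start sites are shown, from RefSeq on GRCm38.p6, written 5′ to 3′ on the strand of the gene. Capitals mark CACGTG, the E-box hexamer that MYC/MAX dimers are known to bind.

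Epha8, chr4:136956817-136957066, minus strand: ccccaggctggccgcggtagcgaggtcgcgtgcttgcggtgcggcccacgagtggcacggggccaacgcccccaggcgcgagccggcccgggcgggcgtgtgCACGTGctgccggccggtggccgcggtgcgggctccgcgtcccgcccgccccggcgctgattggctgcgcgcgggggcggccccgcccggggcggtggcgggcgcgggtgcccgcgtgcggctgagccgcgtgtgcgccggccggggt

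Ephb2, chr4:136836013-136836262, minus strand: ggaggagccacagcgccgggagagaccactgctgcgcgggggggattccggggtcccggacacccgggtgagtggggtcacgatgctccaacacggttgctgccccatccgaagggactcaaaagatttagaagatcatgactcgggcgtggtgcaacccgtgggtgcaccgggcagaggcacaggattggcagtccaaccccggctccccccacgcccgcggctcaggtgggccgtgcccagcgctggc

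The Epha8 window held 1 CACGTG, which begins 148 bases before the start site, and the Ephb2 window held none. All 10 members had such a window (11 windows, since Epha7 has 2), and Epha8's was the only one of them with CACGTG. Across all 32851 windows of this length, 6.02% held CACGTG, a palindrome that reads the same on both strands. The related hexamer CACGCG, searched on both strands, was found at 3 places in the Epha8 window, in no other member window, and in 7.62% of all windows. Of the 24 windows of the whole family, 4 held CACGCG, the others being those of Efna3 and Efna5, which are not members. Efna3 and Efna5 had log2 fold changes of -0.10 and -2.22. GC content was 84.0% in the Epha8 window and 68.4% in the Ephb2 window, beside a median of 52.4% over all windows. A match is a description of these letters, and binding of MYC to either window was not measured here.

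The libraries differed in depth and content in ways that touch low-level genes. Total counts ranged from 2716322 to 17073285 per tumor. In M351, M408, M9 and F187, reads on 11 genes, here called satellite genes, took 23.2% to 81.0% of the counts, against at most 0.0242% in the other 5 libraries. The genes were picked by counts, not annotation, as far higher in 4 libraries than in the rest. That contrast therefore follows from the choice. Reads on chemosensory receptor genes, per kilobase of exon, served as the measure of genomic background, which was high in the same 4. M624 and M664 stood apart in another way, with 3.47 and 6.35 CPM of the small nuclear RNA Rn7sk against 6545 to 10667 CPM in the other 7 libraries. For most members, fits that leave out some of these libraries are also given. The 5 libraries without satellite reads are F325, F331 and F368 against M624 and M664. In a fit of these 5, every Myc-knockin library is one with low Rn7sk, so genotype and this library difference cannot be told apart. CPM is the count scaled by edgeR to the TMM-normalized library size throughout, and 3 counts, taken as the floor, correspond to 0.114 to 2.39 CPM.

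Expression of Myc, the targeted gene, was 269.6, 520.3, 144, 1045 and 905 CPM in M351, M408, M9, M624 and M664, and 43.5 to 67.1 CPM in the p53-driven tumors. All libraries placed in the Myc-knockin group thus lay above all those placed in the p53-driven group, including M351, M9 and M664, which were placed by their letter alone. Trp53 had a log2 fold change of 0.58 (standard error 0.60), with a sign that turned when M408 was left out.

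Of 15365 genes that passed the filter on low counts, 809 (5.27%) were called between the groups, at an adjusted p under 0.05 by edgeR with Benjamini-Hochberg adjustment and a fold change over 1.5. Of all tested genes, 2.26% were called higher with Myc knockin and 3% lower, and 13% had groups that did not overlap. All 10 members passed the filter. Among them 2 were called higher (Epha8 and Ephb2), 1 was called lower (Epha3) and 7 were not called, and the groups did not overlap for those 3. The log2 fold change was positive for 5 members and negative for 5, with a median of -0.50 against 0.14 over all tested genes. Because the members were chosen on this contrast, nothing is read from these counts, nor from calls of single members under the alternatives, which only show how far a call rests on single libraries. Without M624 and M664 only Ephb2 was called among the members. Without the 4 libraries with satellite reads the same 3 were called, in a fit whose Myc-knockin tumors are M624 and M664 alone.

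**Figure D1:**
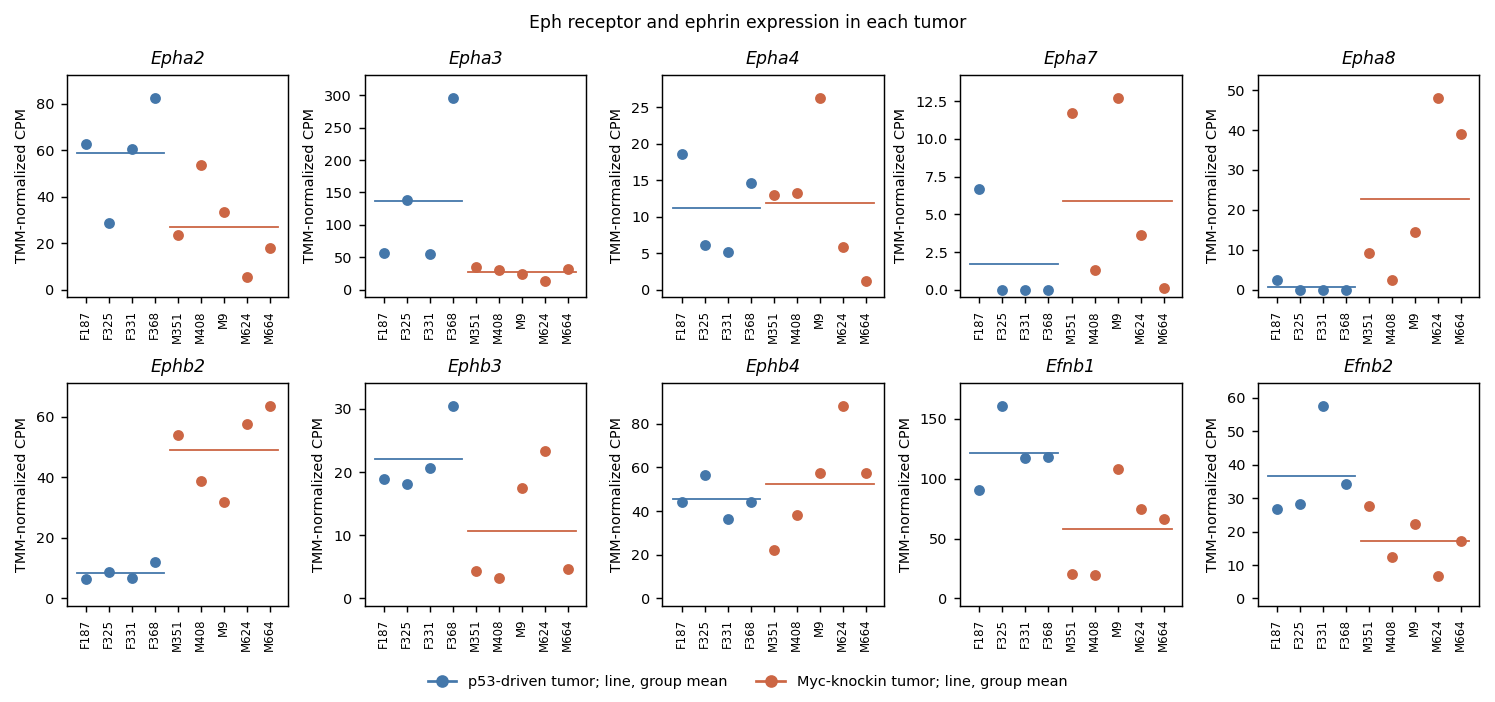
Expression of the 8 Eph receptors and 2 ephrins in each of the 9 tumors, in TMM-normalized CPM on linear axes that differ between panels; points are tumors and lines are group means. The 5 Myc-knockin tumors lie above the 4 p53-driven tumors for Ephb2 and Epha8 and below them for Epha3, and the groups overlap for the other 7 genes.

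Ephb2 encodes a receptor for ephrin-B ligands that also binds ephrin-A5 and is known for positioning cells in the intestinal crypt. Its expression was 6.32, 8.71, 6.66 and 12.04 CPM in F187, F325, F331 and F368 of the p53-driven group, and 54.2, 38.8, 31.9, 57.5 and 63.5 CPM in M351, M408, M9, M624 and M664 of the Myc-knockin group. The 2 groups were far apart, since the lowest Myc-knockin tumor, M9, was above the highest p53-driven tumor, F368. The means were 49.2 ± 13.3 (SD, n = 5) and 8.43 ± 2.63 CPM (SD, n = 4), a log2 fold change of 2.54 (standard error 0.33), or 5.81-fold. Without M624 and M664 this value was 2.35 (standard error 0.30), and without the 4 libraries with satellite reads it was 2.76 (standard error 0.33). Leaving out each tumor in turn gave 2.41 to 2.74, and the gene was called in 6 of these 9 fits, those without F325, F331 or F368 being the exceptions. Part of the low counts can be genomic background: 16 reads were counted in F187 where 8.95 were expected from background, and 40 in M9 where 15.7 were expected. Subtraction of the background gave a log2 fold change of 2.67.

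Epha8 encodes an EphA receptor known mainly from the developing brain, where it guides axons. No read was counted on it in F325, F331 and F368, and 6 were counted in F187, where 3.35 were expected from genomic background. In the Myc-knockin tumors 15, 13, 18, 1263 and 903 reads were counted in M351, M408, M9, M624 and M664, where background would give 5.30, 0.713, 5.86, 0.194 and 0.194. These counts correspond to 2.37 CPM in F187 and to 9.23, 2.38, 14.3, 48.1 and 39.0 CPM in the Myc-knockin tumors. Every Myc-knockin tumor was above every p53-driven tumor, but the lowest of them, M408, and F187 differed only in the third digit. M624 and M664 were the highest by a wide margin. The mean of the Myc-knockin tumors was 22.6 ± 19.8 CPM (SD, n = 5), at least 79.1-fold higher than the p53-driven libraries at 0, each set to its own floor of 3 counts, and 38.2-fold the mean of all 4 p53-driven tumors with F187 as measured. The lowest Myc-knockin tumor was at least 8.33-fold above that floor. The fitted log2 fold change was 6.41 (standard error 1.52), a value that depends on the prior count and is no bound. Without M624 and M664 it was 4.55 (standard error 1.71) and Epha8 was not called. Without the 4 libraries with satellite reads it was 12.5 and without F187 alone 11.02, fits in which the p53-driven tumors left were all at 0. Epha8 was also not called in the fits without F325, F331, F368, M351, M624 or M664.

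**Figure D2:**
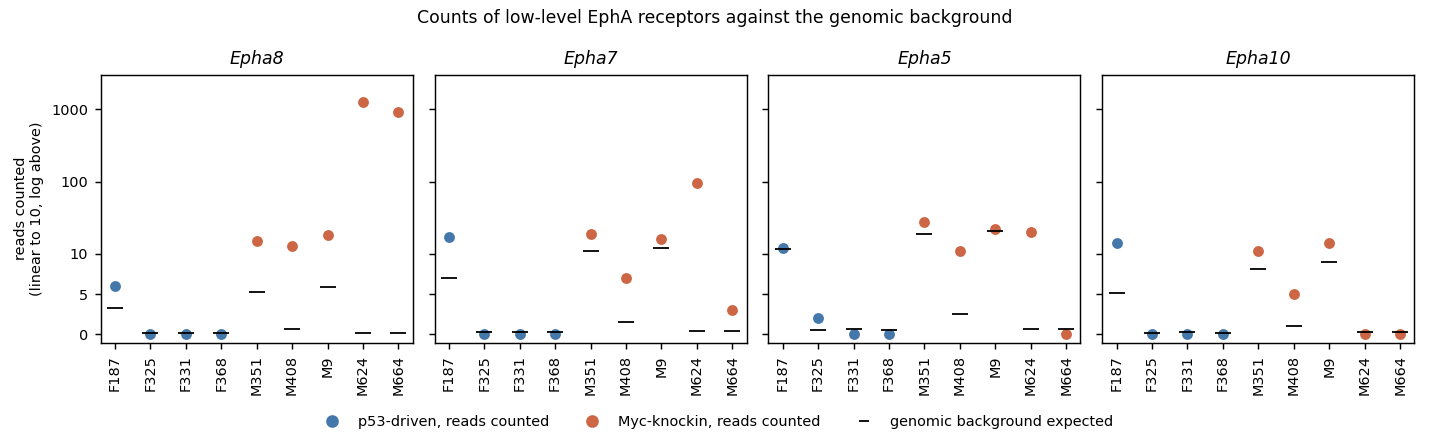
Reads counted on 4 EphA receptor genes in each tumor, on an axis that is linear to 10 and logarithmic above, with dashes for the reads expected from genomic background. Epha8 reached 1263 and 903 reads in M624 and M664 against a background of 0.194, while the counts of Epha5 in F187, M351 and M9 lie near their dashes.

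Epha7, an EphA receptor known from the formation of the cortex and of topographic maps, had a similar lack of reads in the p53-driven tumors. It was at 0 in F325, F331 and F368 and at 17 reads in F187, where 7.02 were expected from background. The Myc-knockin tumors had 19, 7, 16, 96 and 3 reads in M351, M408, M9, M624 and M664. In M351 and M9 the expected background was 11.1 and 12.3 reads, so M624, with 96 reads against 0.407 expected, was the tumor with the clearest signal. In CPM the Myc-knockin tumors ranged from 0.130 to 12.7 and the p53-driven tumors from 0 to 6.71, and the groups overlapped. The log2 fold change of 1.98 had a standard error of 1.78.

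Epha3 encodes a receptor with high affinity for ephrin-A5 that is known to control cell retraction and detachment. It was 56.1, 139, 55.5 and 296 CPM in F187, F325, F331 and F368, and 35.7, 31.1, 23.9, 13.7 and 31.8 CPM in M351, M408, M9, M624 and M664. All Myc-knockin tumors lay below all p53-driven tumors, and the p53-driven tumors themselves spread widely, with F368 far above the rest. The means were 27.3 ± 8.69 (SD, n = 5) and 137 ± 113 CPM (SD, n = 4), a log2 fold change of -2.33 (standard error 0.52), or 5.04-fold lower. Without F368 the log2 fold change was -1.65 and the gene was not called. It was not called either without F325, F331, M351 or M624, or without M624 and M664 together, where the value was -2.10 (standard error 0.61). Without the 4 libraries with satellite reads the value was -2.81 (standard error 0.79).

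Epha2 encodes the main receptor for ephrin-A1 and is found in many carcinomas. Its expression was 62.8, 28.5, 60.5 and 82.5 CPM in F187, F325, F331 and F368, and 23.4, 53.7, 33.5, 5.45 and 17.8 CPM in M351, M408, M9, M624 and M664. M408 reached the level of the p53-driven tumors and F325 fell among the Myc-knockin tumors, so the groups overlapped. The log2 fold change was -1.14 (standard error 0.54). The value was -0.58 (standard error 0.42) without M624 and M664 and -2.27 (standard error 0.69) without the 4 libraries with satellite reads.

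Epha4, a receptor that binds both ephrin classes, ranged from 5.19 to 18.6 CPM in the p53-driven tumors and from 1.25 to 26.3 CPM in the Myc-knockin tumors. Its log2 fold change was 0.05 (standard error 0.72), and the sign turned under scaling by library size alone, where it was -0.38. Without the 4 libraries with satellite reads the value was -1.26 (standard error 0.80).

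Ephb3 and Ephb4 did not follow Ephb2. Ephb3, which acts together with Ephb2 in the intestinal crypt, was 19.0, 18.05, 20.7 and 30.4 CPM in F187, F325, F331 and F368, and 4.31, 3.30, 17.5, 23.3 and 4.66 CPM in M351, M408, M9, M624 and M664. The p53-driven tumors were close to each other, and the Myc-knockin tumors fell apart into low and high values, with M624 above 3 of the 4 p53-driven tumors. In M351, the 7 reads counted did not exceed the 7.46 expected from background. The log2 fold change was -1.05 (standard error 0.57), with -1.49 without M624 and M664 and -0.71 without the 4 libraries with satellite reads.

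Ephb4, the receptor for ephrin-B2, was 44.2, 56.4, 36.4 and 44.3 CPM in the p53-driven tumors and 22.2, 38.1, 57.4, 88.0 and 57.4 CPM in the Myc-knockin tumors, in the same order of tumors. Its log2 fold change was 0.22 (standard error 0.36), with the Myc-knockin values on both sides of the p53-driven range. Without M624 and M664 the sign turned, and the value was -0.16 (standard error 0.33), while it was 0.69 (standard error 0.31) without the 4 libraries with satellite reads. Ephb4 shares 33 exon bases with Zan on the opposite strand, and the strand setting of the counting is not given in the sources used here.

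Efnb1, an ephrin-B ligand of osteoblasts and of cranial suture borders, was the ligand with the highest level per kilobase. It was 90.1, 160.2, 117 and 118 CPM in F187, F325, F331 and F368, and 20.3, 20.0, 108, 74.7 and 65.9 CPM in M351, M408, M9, M624 and M664. Only M9 reached the p53-driven range, and M351 and M408 were the lowest. The log2 fold change was -1.08 (standard error 0.48). Efnb2, the arterial and osteoclast ligand of EphB4, was 26.9, 28.3, 57.4 and 34.2 CPM in the p53-driven tumors and 27.7, 12.5, 22.3, 6.63 and 17.1 CPM in the Myc-knockin tumors. M351 alone overlapped the p53-driven range, and the log2 fold change was -1.13 (standard error 0.41), with -0.80 without M624 and M664 and -1.74 without the 4 libraries with satellite reads.

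**Figure D3:**
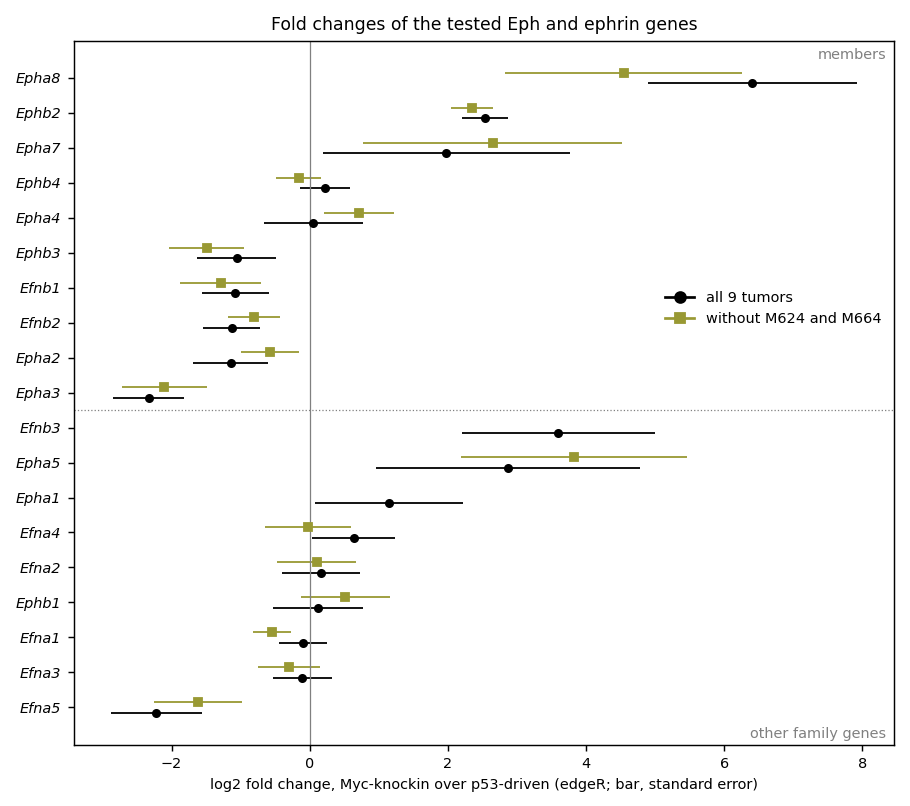
Log2 fold change of Myc-knockin over p53-driven tumors for the 10 members (top) and the 9 other tested Eph and ephrin genes (bottom), by edgeR, with bars of 1 standard error; black circles use all 9 tumors and olive squares the 7 tumors without M624 and M664. Ephb2 has the shortest bars among the members far from 0, Epha8 moves from 6.41 to 4.55, and Ephb4 changes sign; Efnb3 and Epha1 have no square because they did not pass the filter in the 7 tumors.

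The remaining 12 genes of the family are those that the choice of members, made on the same contrast, left out. Of these, 9 passed the filter, and edgeR called 0 of them, while 2 had an unadjusted p under 0.05 (Efna5 and Efnb3) and DESeq2 called 1 (Efna5). Their median log2 fold change was 0.16. Efna5, a lipid-anchored ligand that binds EPHA3 and EPHB2, averaged 82.9 ± 61.7 CPM (SD, n = 4) in the p53-driven and 18.8 ± 16.96 CPM (SD, n = 5) in the Myc-knockin group. This was a log2 fold change of -2.22 (standard error 0.65, adjusted p = 0.0678 by edgeR with Benjamini-Hochberg adjustment). By tumor it was 56.9, 74.7, 28.9 and 170.9 CPM in F187, F325, F331 and F368, and 18.5, 14.3, 47.8, 6.59 and 6.995 CPM in M351, M408, M9, M624 and M664. The Myc-knockin tumor M9 overlapped the p53-driven range, and without it the value was -2.89 (edgeR adjusted p = 0.0215). Without the 4 libraries with satellite reads it was -3.72 (edgeR adjusted p = 0.0204). Efna5 was called in 1 of the 9 fits that left out a tumor, the one without M9. It was not called without M624 and M664, the tumors in which it was lowest.

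Efnb3, a neural ephrin-B ligand, had a log2 fold change of 3.60 (standard error 1.40, edgeR adjusted p = 0.132). This value came largely from 1 tumor, as M624 had 990 reads (37.7 CPM) and the other Myc-knockin tumors had 5 to 28 reads (1.21 to 3.98 CPM). The p53-driven tumors ranged from 0 to 3.16 CPM. Without the 4 libraries with satellite reads Efnb3 was called, with a log2 fold change of 5.87 (edgeR adjusted p = 0.0369). The Myc-knockin tumors of that fit are M624 and M664 alone.

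The other 7 tested genes of the family had adjusted p-values from 0.362 to 0.927 by edgeR with Benjamini-Hochberg adjustment. Efna1, the ligand of EphA2, averaged 20.2 ± 5.29 CPM (SD, n = 4) and 18.7 ± 8.02 CPM (SD, n = 5) in p53-driven and Myc-knockin tumors, with a log2 fold change of -0.09 (edgeR adjusted p = 0.893). Efna2, Efna3 and Efna4, further lipid-anchored ligands, had log2 fold changes of 0.16, -0.10 and 0.64, and the signs of Efna1, Efna2 and Efna3 turned when single tumors were left out, as that of Efna4 did without M624 and M664. Ephb1, a neural EphB receptor, had a value of 0.12 (standard error 0.65), which was negative under scaling by library size alone, and Epha1, the first receptor of the family to be cloned, had 1.15 (standard error 1.07). Epha5, a receptor of axon guidance, had a value of 2.87 with a standard error of 1.91. Its reads in the Myc-knockin tumors M351 and M9 were 28 and 22, where 18.8 and 20.8 were expected from background. Epha6, Epha10 and Ephb6 did not pass the filter, and Epha10 was at 0 in the 5 libraries without satellite reads. Ephb6, which lacks kinase activity, was 9.64 CPM in M624 (253 reads) and 12.7 CPM in M9 (16 reads, of which 4.69 were expected from background), and at most 3.16 CPM in any other tumor.

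A list of 58 cytoplasmic partners and effectors of Eph and ephrin signaling was examined beside the receptors, covering kinases, adaptors, guanine nucleotide exchange factors, actin regulators and sheddases among others. Of its 55 tested genes, 2 were called, both lower in the Myc-knockin tumors, against 5.27% of all tested genes. Log2 fold changes were positive for 17 and negative for 38, with a median of -0.42. Src, a kinase recruited by Eph receptors and ephrin-B ligands, was 55.3, 79.1, 98.5 and 61.0 CPM in F187, F325, F331 and F368, and 12.3, 22.5, 29.5, 16.6 and 18.4 CPM in M351, M408, M9, M624 and M664. The groups did not overlap, and the value on the log2 scale was -1.90 (standard error 0.30, adjusted p = 0.0188 by edgeR with Benjamini-Hochberg adjustment), or 3.73-fold lower. Wasl, which encodes the actin nucleation factor N-WASP, was 110.4 to 150.8 CPM in the p53-driven and 46.0 to 75.7 CPM in the Myc-knockin tumors. It had a log2 fold change of -1.02 (standard error 0.24, edgeR adjusted p = 0.0402). Wasl was called in 1 of the 9 fits that left out a tumor, the one without M9, and not without M624 and M664 (-0.80, edgeR adjusted p = 0.0778). Src was called in 6 of those 9 fits, lost without F325, F331 or F368, and stayed called without M624 and M664 (-1.73, edgeR adjusted p = 0.0394). Scaling by library size alone called 0 of the signaling genes, upper-quartile normalization called only Src, and DESeq2 called 9 genes, 7 of them lower.

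Levels were compared between genes as CPM per kilobase of exon. In the p53-driven tumors the order of the member receptors by mean was Epha3 (15.7 ± 13.0, SD, n = 4), Epha2 (12.5 ± 4.79), Ephb4 (9.77 ± 1.78), Ephb3 (3.32 ± 0.857), Epha4 (1.38 ± 0.809), Ephb2 (0.669 ± 0.208), Epha7 (0.170 ± 0.340) and Epha8 (0.126 ± 0.251). Epha3, Epha2 and Ephb4 followed each other by less than the larger SD, as did Epha4 and Ephb2, and Epha7 and Epha8. In the Myc-knockin tumors the order was Ephb4 (11.3 ± 5.32, SD, n = 5), Epha2 (5.73 ± 3.88), Epha8 (4.80 ± 4.21), Ephb2 (3.90 ± 1.05), Epha3 (3.14 ± 0.999), Ephb3 (1.60 ± 1.38), Epha4 (1.48 ± 1.18) and Epha7 (0.597 ± 0.599). There the only steps wider than the larger SD were those from Ephb4 to Epha2 and from Epha3 to Ephb3. On this scale Efnb1 went from 35.2 ± 8.39 to 16.8 ± 10.98 and Efnb2 from 5.35 ± 2.07 to 2.51 ± 1.20.

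**Figure D4:**
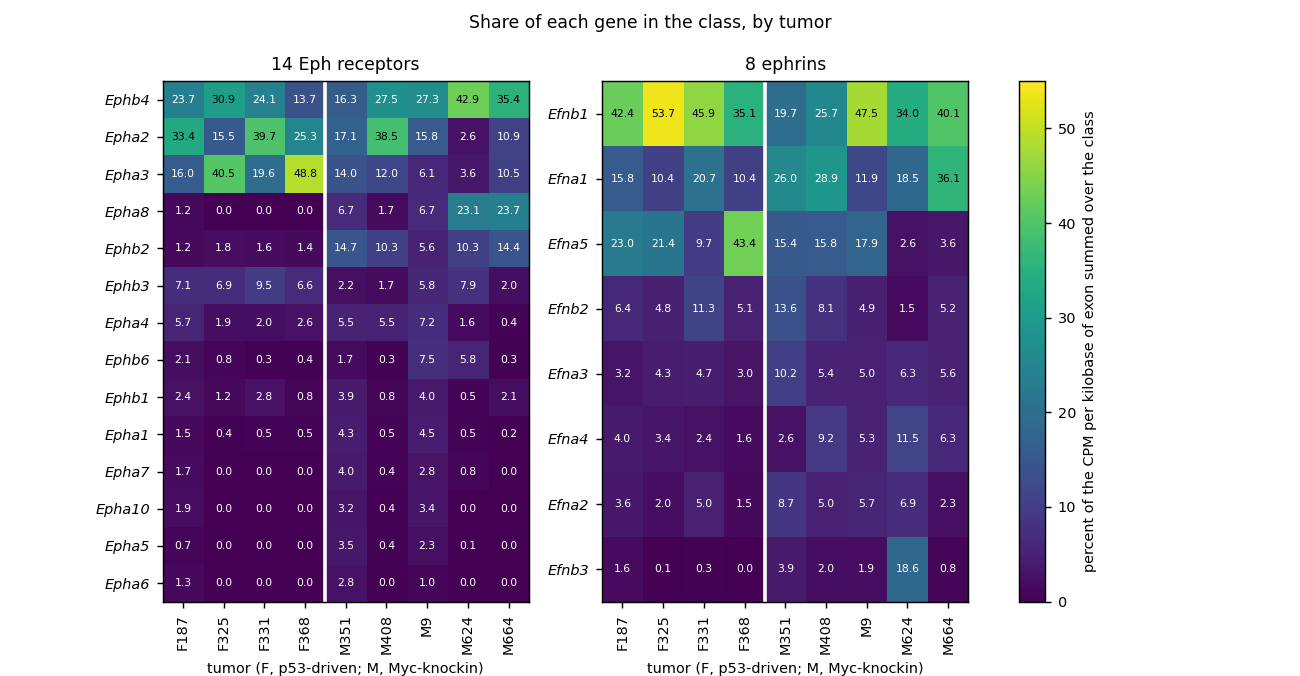
Share of each gene, in percent of the CPM per kilobase of exon summed over the 14 Eph receptors (left) or the 8 ephrins (right), in each tumor, with a white line between the 4 p53-driven and the 5 Myc-knockin tumors. Epha8 takes 23.1% and 23.7% of the receptor total in M624 and M664 and 0% in 3 p53-driven tumors, and Epha3 takes 48.8% in F368.

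The tumors thus differed in which receptor was the most abundant. Of the 14 Eph receptors, Epha2 ranked first in F187 and F331 and Epha3 in F325 and F368. Among the Myc-knockin tumors Epha2 ranked first in M351 and M408 and Ephb4 in M9, M624 and M664. Epha3 made up 16.0% to 48.8% of the receptor total in the p53-driven and 3.57% to 14.04% in the Myc-knockin tumors. Ephb2 made up 1.25% to 1.76% and 5.58% to 14.7%, and Epha8 was second in M624 and M664. EphB receptors together held 22.8% to 41.6% of the receptor total in the p53-driven and 38.8% to 67.5% in the Myc-knockin tumors, with the highest share in M624. Of the 8 ephrins, Efnb1 ranked first in 3 of 4 p53-driven tumors, Efna5 being first in F368, and in 3 of 5 Myc-knockin tumors, with Efna1 first in M351 and M408.

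In whole tumors, fewer cells of a type and less RNA per cell cannot be told apart, so markers of the cells known to carry these receptors and ligands were summed in each tumor. For EPHB4 and ephrin-B2 of vessels, the 14 endothelial markers summed to 530.0 to 641 CPM in the p53-driven and 179 to 716 CPM in the Myc-knockin tumors. None of the 14 was called by edgeR or DESeq2, and 1 had an unadjusted p under 0.05. M664 had the highest endothelial sum and M624 the lowest, and Ephb4 was highest in M624. The part of endothelial cells in the Ephb4 values was not tested. For ephrin-B2 of osteoclasts, the 11 osteoclast markers summed to 3005 to 14841 CPM in the p53-driven and 193 to 2698 CPM in the Myc-knockin tumors, and 8 of the 11 were called lower. The 12 osteoblast markers summed to 66205 to 141847 and 3622 to 41579 CPM, and 2 of the 12 were called lower. Most of the mean sum in each group came from Col1a1 and Col1a2, neither of them called. Their means were 67771 and 45533 CPM in the p53-driven and 8492 and 6226 CPM in the Myc-knockin tumors. The 11 macrophage markers summed to 853 to 1607 and 339 to 1145 CPM, with 3 called lower (Csf1r, Cd68 and Tyrobp) and 8 not called. Of these markers, 3 had positive log2 fold changes (C1qa, C1qb and Aif1) and 8 negative ones, C1qc among them at -0.05. The part of these cells in the lower Efnb1, Efnb2, Epha2, Epha3, Src and Wasl values was not tested. Of the 12 osteoblast markers, 2 were at 0 in M408 and 1 in M624, and the other tumors had reads on all of them. The osteoblast sum, mostly the collagens Col1a1 and Col1a2, was lowest in M624. There Epha2, Epha3 and Efnb2 were also lowest but Efnb1, at 74.7 CPM, was second among the Myc-knockin tumors.

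For the neural receptors and ligands, 13 neural and glial markers summed to 27.6 to 46.6 CPM in the p53-driven and 53.5 to 141 CPM in the Myc-knockin tumors. Of the 8 tested, edgeR called 0, DESeq2 called 1, and 2 had an unadjusted p under 0.05. Log2 fold changes were positive for 7 of the 8. Sox10, Elavl3, Elavl4 and Snap25 were each at 0 in 2 tumors, and Gfap and Nefm in 3. In M624 and M664, where Epha8 was highest, the neural sums were 73.2 and 53.5 CPM, the lowest of the Myc-knockin tumors. M408, with the lowest Epha8 of the Myc-knockin tumors, had the highest neural sum. The part of neural cells in the Epha8 values was not tested. The neural sums were not corrected for genomic background, which was high in F187, M351, M408 and M9. The part of background in their order and in their difference between the groups was not tested. The 6 epithelial markers summed to 1.46 to 11.1 and 12.2 to 163 CPM, highest in M408, the Myc-knockin tumor with the highest Epha2. Krt18 alone made up 115.7 CPM of the M408 sum. The 5 skeletal muscle markers summed to 12.6 to 3831 and 1.68 to 1590 CPM. The part of such cells in these values was not tested. The epithelial and muscle sums were not corrected for background either.

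The 93430 bases between Ephb2 and Epha8 hold the genes C1qa, C1qb and C1qc, which encode the chains of complement C1q and are known from macrophages. Their log2 fold changes were 0.17, 0.56 and -0.05, and none was called by edgeR, with adjusted p = 0.875, 0.593 and 0.969 after Benjamini-Hochberg adjustment. Mean expression in p53-driven and Myc-knockin tumors was 58.5 and 65.2 CPM for C1qa, 48.0 and 70.0 CPM for C1qb, and 61.1 and 58.9 CPM for C1qc. Whether these genes differed from Ephb2 and Epha8 in their change was not tested. Epha2 and Epha7 also lie on chromosome 4, outside this stretch, and had log2 fold changes of opposite sign.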

How the data were processed

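The paper describes enrichment of mRNA from the tumors with oligo-dT. Rn7sk set M624 and M664 apart from the other libraries, and whether library preparation differed between them was not tested. The authors used Trim Galore for trimming, STAR for alignment to mm10 and featureCounts for the raw counts per gene. These counts were deposited for 9 tumors in 1 table. The strand setting and the treatment of reads with several positions are not given in the sources used here. No sample label names a column of the table. F187, F325, F331, F368, M408 and M624 were placed by the genotype under which the study's supporting data list cell lines of the same names. M351, M9 and M664 were placed by their letter. Columns were therefore used as members of a group, never as a numbered sample. The labels do not say that the tumors came from separate mice, so p-values measure the spread between these tumors.

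Counts were tested in R 4.3.3 with edgeR 4.0.16 (TMM, filterByExpr with a minimum count of 10, glmQLFTest), with Benjamini-Hochberg adjustment over 15365 genes. Calls needed an adjusted p below 0.05 together with a fold change above 1.5. The standard error is the log2 fold change divided by the root of the F statistic. Exon lengths came from GENCODE for GRCm38, where 55111 of the identifiers were found. Promoter windows came from RefSeq (GRCm38.p6), and 21 of the 22 family genes had one. Genomic background was the reads on 1781 chemosensory receptor genes per kilobase of exon, multiplied by each gene's exon length. The depth of 2716322 to 17073285 counts sets floors of 3 counts that cover counting error only. The edgeR fit was tested on simulated data.

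Alternatives were upper-quartile normalization, DESeq2 size factors, library size alone, no filter beyond 1 count, DESeq2 1.42.0, each tumor left out, M624 and M664 left out, the 4 libraries with satellite reads left out, the satellite genes left out, and the background subtracted. The satellite genes are those with over 0.01% of the counts in the highest library and a share over 100 times higher in the fourth-highest library than in the fifth-highest. The members and gene lists were chosen with earlier results of these data known. The named genes are all members, the other Eph and ephrin genes, the signaling genes called whose groups do not overlap, Myc and Trp53. Rn7sk, Krt18, the C1q genes and single neural markers were named after their values were seen. Proteome and human data were not used here.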

Additional observations from a re-analysis of the deposited data

Results flagged for a closer look

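Single tumors stood far from the rest of their group for 5 of the 38 gene and group combinations checked in the family, with a criterion that chance passes in about 1 of 20 groups of normally distributed values. That share does not hold where all other tumors are at 0, as for Epha7 and Epha8. In the p53-driven group the distant tumor was F187 each time. Epha7 was 6.71 CPM there and 0 in the other p53-driven tumors, Epha8 was 2.37 CPM there and 0 in the others, and Epha5 was 4.74 CPM there against 0.156 CPM in the nearest tumor. F187 is the p53-driven library with satellite reads, and background would give 7.02 of its 17 Epha7 reads, 3.35 of its 6 Epha8 reads and 11.9 of its 12 Epha5 reads.

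In the Myc-knockin group Efna5 was 47.8 CPM in M9 against 18.5 CPM in the nearest tumor, with 60 reads counted and 5.01 expected from background. Efnb3 was 37.7 CPM in M624 against 3.98 CPM in the nearest tumor.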

How the results depend on the processing

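Ephb2, Epha8 and Epha3 kept their direction under all alternatives run. The number of all genes called was 136 under library size alone, 494 with all genes of at least 1 count, 2646 with DESeq2, 4595 without the 4 libraries with satellite reads, and 5 (without F368) to 1588 (without M9) with each tumor left out. Of the calls, 43.0% were higher in Myc-knockin tumors, against 64.5% under upper-quartile normalization, 36.8% under library size alone and 58.0% with DESeq2. Library size alone moved the median of all genes by -0.117. The number of members called was 1 under library size alone (Epha8), 1 without M624 and M664 (Ephb2) and 0 to 3 with each tumor left out. It was 0 without F325, F331 or F368, and 1 without M351 or M624. Of the other family genes, 1 was called under library size alone, with all genes of at least 1 count and with DESeq2, 2 without the 4 libraries with satellite reads, and 0 to 1 with each tumor left out. Of the signaling genes, 1 was called under upper-quartile normalization, 0 under library size alone, 1 with all genes of at least 1 count, 9 with DESeq2, 12 without the 4 libraries with satellite reads, 1 with background subtracted, and 0 to 4 with each tumor left out.

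Signs turned only for log2 fold changes that were not called. Under library size alone, Epha4 was -0.38 and Ephb1 -0.35. With all genes of at least 1 count they were -0.14 and -0.052, and with background subtracted -0.047 and -0.32. Without the 4 libraries with satellite reads, Epha4 was -1.26, Ephb1 -0.39, Epha1 -0.45 and Efna1 0.35. Without M624 and M664, Ephb4 was -0.16 and Efna4 -0.026. With each tumor left out, Epha4 ranged from -0.45 to 0.40, Ephb1 from -0.36 to 0.42, Efna1 from -0.35 to 0.12, Efna2 from -0.14 to 0.54, Efna3 from -0.28 to 0.13 and Trp53 from -0.072 to 0.81. Of the fold changes of named genes recomputed under the alternatives, 330 kept direction and call, 39 kept direction and lost the call, 6 kept direction and gained it, and 26 turned sign. The cause of these changes was not tested. No paired analysis was possible because the columns carry no replicate numbers. In M351 and M9, depth outside the satellite genes was 873137 and 672104 counts, which limits what low receptors can show.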
